A study of Saccharomyces cerevisiae with 15 samples.

Results

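The genes described are the 3 pyruvate decarboxylase genes PDC1, PDC5 and PDC6 and the 5 alcohol dehydrogenase genes ADH1, ADH2, ADH3, ADH4 and ADH5 of Saccharomyces cerevisiae, budding yeast. They were chosen by name, and their 8 symbols matched 9 of the 9275 probe sets other than controls on the YG_S98 array, with 2 probe sets for ADH4. Pyruvate decarboxylase splits pyruvate, the end product of glycolysis, into acetaldehyde and carbon dioxide with thiamine diphosphate as its cofactor. Alcohol dehydrogenase then reduces acetaldehyde to ethanol and returns NADH to NAD, which keeps glycolysis running, and some isoforms mainly run the reaction the other way when ethanol is the carbon source. On glucose, yeast sends most pyruvate through this pathway even in air.

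All 15 arrays were hybridised with RNA of a PMI40 knockout made in the strain CEN.PK113-7A. PMI40 encodes the isomerase between fructose 6-phosphate and mannose 6-phosphate, so that a strain without it depends on mannose in the medium for its mannoproteins and glycans. The cells grew as aerated batches in mineral medium with 15 g/L glucose, and the 5 groups, of 3 arrays each, differed in the initial mannose, which was 0.75, 1, 1.5, 3 or 5 g/L. Sampling was at 6 h, and arrays of the parent strain were not analysed here. Whether the arrays of a group stem from separate cultures is not in the labels, and in the array records the 3 of them carry 1 code. The p-values then cover the spread between these arrays alone, which may be technical.

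The PMI40 probe set read 113.1 to 270.0 on the arrays. No source used here says where its probes lie relative to the deleted stretch, so this signal does not check the strain. Medians of signal per array ran from 20.1 to 22.1 in the 0.75 g/L group, against 23.3 to 27.1 elsewhere, and the 3'/5' ratio of ACT1, a sign of RNA quality, was 1.37 to 2.36. Fluidics runs, inferred from station and hybridisation time, were run A (the 0.75 g/L arrays and 3 g/L replicate 1), run B (the other 3 g/L arrays with 5 g/L replicates 1 and 2), run C (5 g/L replicate 3 and the 1.5 g/L arrays) and run D (the 1 g/L arrays alone). No other group had an array in run D, so for every difference from the 1 g/L group run and mannose cannot be told apart. The records of run A and of 5 g/L replicate 2 note an uncompleted fluidics run.

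Values are signal intensities on a linear scale as deposited, and levels are compared between groups within a probe set, never between probe sets. Differences were tested with limma on log2 signals over 6957 probe sets, and a difference was called at an adjusted p (Benjamini-Hochberg over all of them) under 0.05. In RNA from whole cultures, fewer cells of a kind and less RNA per cell cannot be told apart. PDC1 and PDC5 are close paralogs, as are ADH1 and ADH2, and how far each probe set also reads its paralog was not tested.

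Across the 5 mannose levels, 5 of the 8 genes differed: PDC5, PDC6, ADH3, ADH4 and ADH5. This F-test called 46.5% of all tested probe sets, a share to set beside 5 of 8. The abundant fermentative genes PDC1 and ADH1, and the glucose-repressed ADH2, did not pass it (adjusted p = 0.339, 0.197 and 0.629). The genes that passed did not share a profile. PDC6 and ADH5 had their highest group mean at 0.75 g/L, PDC5 had its own at 1.5 g/L, ADH3 was lower at 3 and 5 g/L than at the 3 lower levels, and ADH4 was lowest at 1 g/L.

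**Figure D1:**
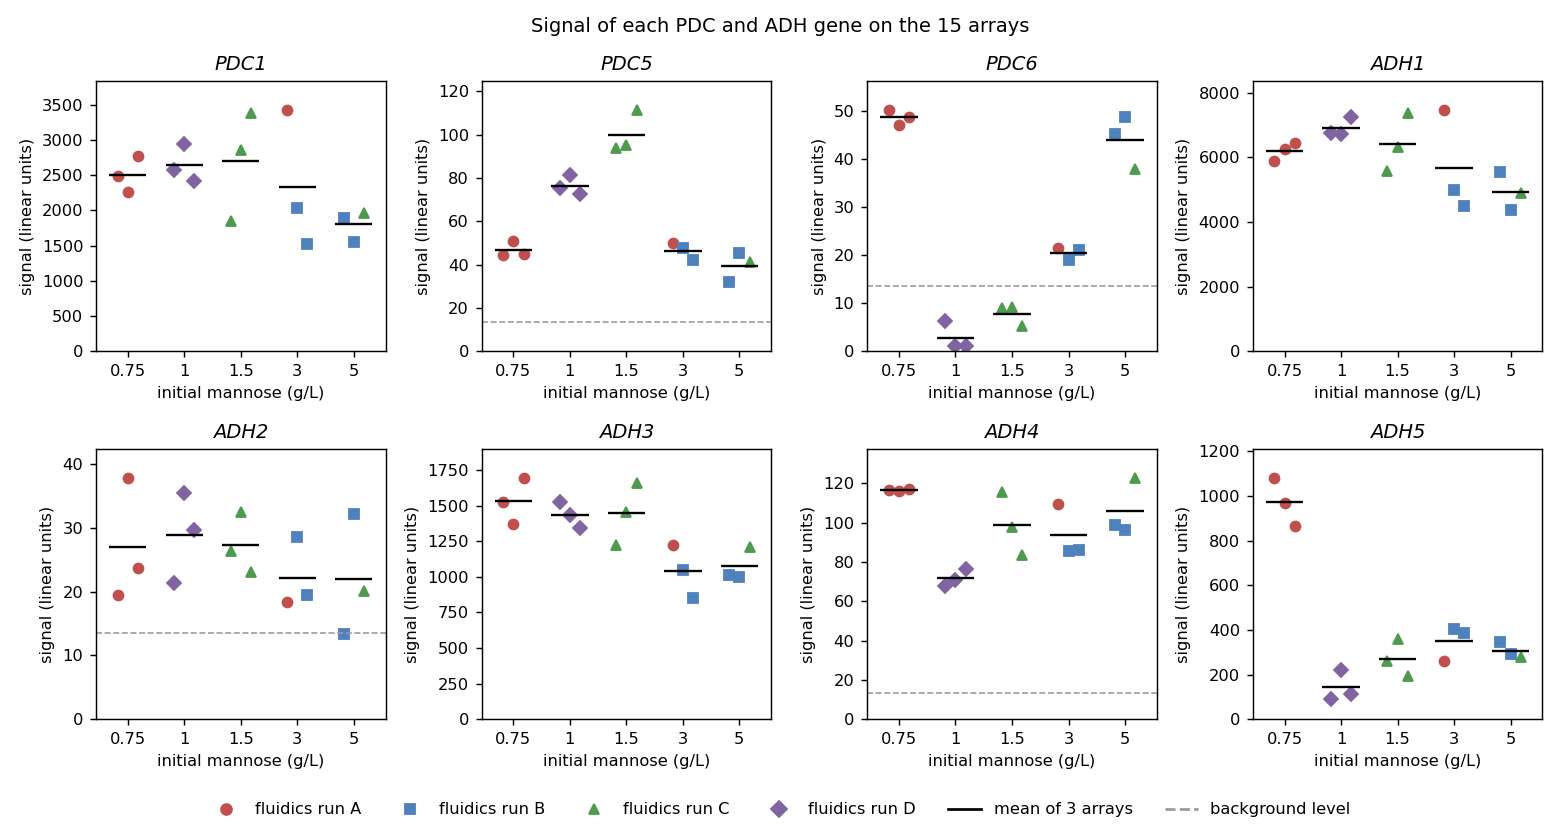
Signal (linear units, a separate axis from 0 for each gene) of the 8 tested probe sets on the 15 arrays against initial mannose (g/L). Points are arrays, with colour and shape for the fluidics run, bars are means of 3 arrays, and the dashed line is the background of 13.5, drawn for the dimmer genes. PDC6 lies at 1.1 to 9.2 at 1 and 1.5 g/L, below that line, and ADH5 lies at 866.1 to 1081.5 at 0.75 g/L, above every array of the other concentrations.

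PDC1 encodes the main pyruvate decarboxylase of fermenting cells. It had signals of 2489.1, 2266.6 and 2765.4 with 0.75 g/L mannose, 2569.8, 2938.1 and 2423.0 with 1 g/L, and 1851.5, 2862.2 and 3377.7 with 1.5 g/L. It had 3424.6, 2036.6 and 1519.5 with 3 g/L, then 1898.1, 1549.6 and 1960.1 with 5 g/L. The highest and the lowest of its 15 values were both at 3 g/L, so the spread within that group covered the whole range of the others. The 5 g/L arrays lay below all 0.75 g/L arrays, with 1803 ± 221 at 5 g/L and 2507 ± 250 at 0.75 g/L (SD, n = 3 each), but the difference of -0.48 ± 0.27 on the log2 scale (SE) did not pass (adjusted p = 0.189).

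The slope of PDC1 on log2 mannose was -0.18 ± 0.08 per doubling (adjusted p = 0.122). Without 3 g/L replicate 1, the array in run A, it was -0.22 with an adjusted p of 0.0408. Within run A, PDC1 was higher in that array (3424.6) than in the mean of the 0.75 g/L arrays (2507), a log2 difference of 0.45, while over all arrays the difference was -0.19. The direction between 3 and 0.75 g/L therefore differed between the run and the whole set.

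PDC5 encodes the second decarboxylase, known to be raised when PDC1 is lost or thiamine is scarce. Its signals were 44.6, 51.1 and 45.1 with 0.75 g/L mannose, 75.2, 81.3 and 72.7 with 1 g/L, 93.7, 95.1 and 111.4 with 1.5 g/L, 49.8, 47.5 and 42.2 with 3 g/L, and 32.2, 45.3 and 41.0 with 5 g/L. The 1.5 g/L arrays were the highest, those at 1 g/L came next without overlap, and the other 3 groups overlapped. PDC5 rose 1.63-fold at 1 g/L over 0.75 g/L (log2 0.70 ± 0.15, adjusted p = 0.00254). It fell 2.15-fold at 3 g/L relative to 1.5 g/L, to 46.5 ± 3.90 at 3 g/L against 100.07 ± 9.84 at 1.5 g/L (SD, n = 3 each, log2 -1.10 ± 0.15, adjusted p = 0.00139).

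Among the 8 genes this fall of PDC5 was the 1 call between 1.5 and 3 g/L, a comparison that called 4.1% of all tested probe sets. No run held both of those groups. With run as a fixed term in a fit without the 1 g/L arrays, only the 5 g/L arrays of runs B and C link them. The difference was then -1.05 ± 0.32, nearly as large but with a wider error and not called (adjusted p = 0.402). Within run C, PDC5 was lower at 5 g/L (41.0, 1 array) than at 1.5 g/L (100.07, 3 arrays), a log2 difference of -1.28 against -1.35 over all arrays. At 5 g/L it was also lower than at 1 g/L, by 1.95-fold (log2 -0.96 ± 0.15, adjusted p = 0.000485).

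PDC6 encodes a minor decarboxylase that fermenting cells on rich medium hardly use and that is known to rise when sulfur is limiting. Its signals were 50.2, 47.1 and 48.7 with 0.75 g/L mannose, 6.2, 1.2 and 1.1 with 1 g/L, 9.0, 9.2 and 5.3 with 1.5 g/L, 21.5, 19.0 and 21.0 with 3 g/L, and 45.2, 48.8 and 38.0 with 5 g/L. It was thus high at both ends of the mannose range and, on all 6 arrays at 1 and 1.5 g/L, below the background of 13.5 set by control probe sets of mouse and antisense sequence. At 3 g/L it lay between the groups with no overlap on either side.

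Because of that background, folds of PDC6 are bounds. At 1 g/L it was at least 3.60-fold lower than at 0.75 g/L (measured means 2.83 at 1 g/L and 48.7 at 0.75 g/L). At 5 g/L it was at least 3.24-fold higher than at 1 g/L (44.0 at 5 g/L and 2.83 at 1 g/L). Both differences were called by limma (adjusted p = 2.36e-06 and 8.0e-06). That fit set only values below 1.5 to 1.5, so its p-values do not test the bounds. Between the end groups, 5 against 0.75 g/L, the log2 difference was -0.15 ± 0.42 (adjusted p = 0.807), and their arrays overlapped. Values within runs also differed: 21.5 at 3 g/L against 48.7 at 0.75 g/L in run A, 47.0 at 5 g/L against 20 at 3 g/L in run B, and 38.0 at 5 g/L against 7.83 at 1.5 g/L in run C.

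ADH1 encodes the main cytosolic enzyme of ethanol formation. Its signals were 5897.6, 6243.7 and 6449.8 with 0.75 g/L mannose, 6755.8, 6720.5 and 7229.2 with 1 g/L, 5572.6, 6306.6 and 7367.5 with 1.5 g/L, 7461.0, 5001.6 and 4505.7 with 3 g/L, and 5549.8, 4357.0 and 4908.2 with 5 g/L. As for PDC1, 3 g/L replicate 1 was the highest array of all, and the 5 g/L arrays lay below all 0.75 g/L arrays. The difference of -0.33 ± 0.18 between 5 and 0.75 g/L (log2, 4938 ± 597 at 5 g/L and 6197 ± 279 at 0.75 g/L, SD, n = 3 each) did not pass, with an adjusted p of 0.180. Its slope of -0.15 ± 0.06 per doubling had an adjusted p of 0.0860, and without 3 g/L replicate 1 it was -0.18 with an adjusted p of 0.0355.

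ADH2 encodes the isoform that oxidises ethanol and is repressed by glucose. Its signals were 19.4, 37.8 and 23.7 with 0.75 g/L mannose, 21.3, 35.4 and 29.7 with 1 g/L, 26.4, 32.4 and 23.1 with 1.5 g/L, 18.4, 28.6 and 19.4 with 3 g/L, and 13.4, 32.2 and 20.1 with 5 g/L. All 5 groups overlapped, all values were within a few fold of the background, and 1 array at 5 g/L was below it. The log2 difference of ADH2 between 5 and 0.75 g/L was -0.33 ± 0.33 (adjusted p = 0.454), an error as large as the difference.

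ADH3 encodes the mitochondrial isoform, which takes part in moving NADH equivalents between matrix and cytosol. Its signals were 1525.3, 1370.6 and 1695.0 with 0.75 g/L mannose, 1528.1, 1434.7 and 1343.6 with 1 g/L, 1222.3, 1454.2 and 1660.8 with 1.5 g/L, 1221.2, 1044.5 and 851.8 with 3 g/L, and 1016.3, 1000.1 and 1209.2 with 5 g/L. All 6 arrays at 3 and 5 g/L were below all 9 arrays at 0.75 to 1.5 g/L. The margin was small, with 1221.2 in 3 g/L replicate 1 and 1222.3 in 1.5 g/L replicate 1. ADH3 had the only slope called among the 8 genes, -0.22 ± 0.06 per doubling of mannose (adjusted p = 0.0149), while the trend called 23.6% of all tested probe sets.

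ADH3 was also lower at 5 g/L than at 0.75 g/L, by 1.42-fold (1075 ± 116 at 5 g/L and 1530.3 ± 162 at 0.75 g/L, SD, n = 3 each, log2 -0.51 ± 0.17, adjusted p = 0.0314). That call did not hold without 0.75 g/L replicate 1 (adjusted p = 0.0739), 0.75 g/L replicate 3 (0.109), 5 g/L replicate 1 (0.0900) or 5 g/L replicate 2 (0.0918). With run as a fixed term in the fit the slope was -0.13 (adjusted p = 0.342). In such a fit without the 1 g/L arrays, the difference between 5 and 0.75 g/L was -0.22 (adjusted p = 0.664). The slope itself was called with each single array left out, but not without all arrays of uncompleted records (-0.23, adjusted p = 0.0657). The call of ADH3 across the 5 levels (adjusted p = 0.0282) was lost without 0.75 g/L replicates 1 or 3, 3 g/L replicates 2 or 3, or 5 g/L replicates 1 or 2, with adjusted p up to 0.0584.

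ADH4 encodes an isoform of the iron-containing family that is induced by the regulator Zap1 when zinc is short. The brighter of its probe sets had signals of 116.5, 116.1 and 117.2 with 0.75 g/L mannose, 67.7, 70.7 and 76.6 with 1 g/L, 115.8, 97.6 and 83.4 with 1.5 g/L, 109.5, 85.7 and 86.3 with 3 g/L, and 99.0, 96.1 and 122.8 with 5 g/L. Every 1 g/L array was below every other array. The other probe set read 0.1 to 5.9 on the 15 arrays, below background throughout, and was removed by the filter on low means. The 2 probe sets thus disagree about whether ADH4 is measurable, and the results for ADH4 are those of the brighter probe set.

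ADH4 fell 1.63-fold at 1 g/L relative to 0.75 g/L (71.7 ± 4.53 at 1 g/L and 116.6 ± 0.557 at 0.75 g/L, SD, n = 3 each, log2 -0.70 ± 0.16, adjusted p = 0.00354). At 5 g/L it was 1.47-fold higher than at 1 g/L (log2 0.56 ± 0.16, adjusted p = 0.0220). This rise was not called without 1 g/L replicate 1 (adjusted p = 0.0668), 1 g/L replicate 2 (0.0539) or 5 g/L replicate 3 (0.0999), nor under quantile normalization (0.0957), median scaling (0.0606) or with only the 6 arrays compared (0.0547). Without either of those 1 g/L arrays the call across the 5 levels was lost too (adjusted p = 0.0759 and 0.0639), as it was under quantile normalization (0.0533), while the fall at 1 g/L was called with each array left out. Its slope over the 5 levels was 0.03 ± 0.08 per doubling as deposited (adjusted p = 0.815), and its sign turned under quantile normalization and median scaling.

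ADH5 encodes a minor cytosolic isoform whose role is less well defined. Its signals were 1081.5, 967.2 and 866.1 with 0.75 g/L mannose, 90.0, 222.7 and 114.6 with 1 g/L, 258.6, 361.1 and 193.9 with 1.5 g/L, 262.3, 405.0 and 384.4 with 3 g/L, and 345.6, 290.8 and 280.7 with 5 g/L. Every array of the 0.75 g/L group was far above the other 12, and the 1 g/L arrays were the lowest on average, with an overlap with 1.5 g/L. At 1 g/L ADH5 fell 7.33-fold relative to 0.75 g/L (142 ± 70.6 at 1 g/L and 972 ± 108 at 0.75 g/L, SD, n = 3 each, log2 -2.87 ± 0.30, adjusted p = 5.77e-06).

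At 5 g/L ADH5 was 3.18-fold lower than at 0.75 g/L (log2 -1.67 ± 0.30, adjusted p = 0.000684) and 2.31-fold higher than at 1 g/L (log2 1.21 ± 0.30, adjusted p = 0.0108). Within run A it was 262.3 in the 3 g/L array against 972 in the 0.75 g/L arrays, a log2 difference of -1.88, compared with -1.49 over all arrays. Its difference from the 0.75 g/L arrays was thus as large within the run as over the whole set, for that 1 array. The slope over all 5 levels was -0.17 ± 0.24 (adjusted p = 0.650), and without the 0.75 g/L arrays it was 0.48 ± 0.15 (adjusted p = 0.0290).

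Among the 4 steps, the lowest had the most calls, for these genes and for all tested probe sets alike. Run and mannose cannot be told apart at that step, nor at the step from 1 to 1.5 g/L. Between 1 and 0.75 g/L, 4 of the 8 were called, with PDC5 higher and PDC6, ADH4 and ADH5 lower at 1 g/L, where 37.4% of all tested probe sets were called. Between 1.5 and 1 g/L, limma called 0 of the 8 (0.402% of all probe sets), though 4 had an unadjusted p under 0.05. Of those, PDC5, ADH4 and ADH5 had higher means at 1.5 g/L, and PDC6 was below background in both groups, which gives no direction. Between 5 and 3 g/L it called 0 as well (0.977% of all), with 1 at an unadjusted p under 0.05, PDC6.

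**Figure D2:**
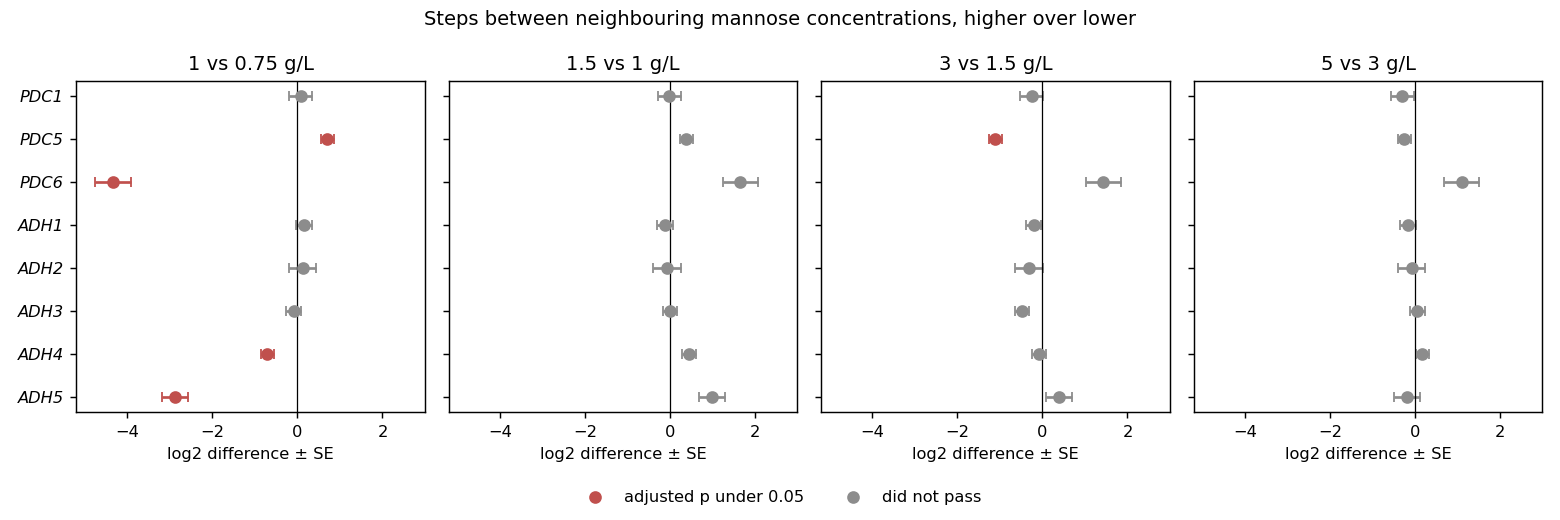
Log2 difference (± SE of the limma fit) of each gene between neighbouring mannose levels, the higher level minus the lower, in red where the adjusted p was under 0.05. ADH5 fell by 2.87 at 1 relative to 0.75 g/L and PDC5 fell by 1.10 at 3 relative to 1.5 g/L, and the PDC6 values next to 1 and 1.5 g/L rest on signals below background.

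Between 5 and 1 g/L, 4 of the 8 genes were called, PDC6, ADH4 and ADH5 higher and PDC5 lower at 5 g/L, beside 23.9% of all tested probe sets. This comparison shares the 1 g/L arrays with that of 1 and 0.75 g/L, and here too run and mannose cannot be told apart. The end groups, 5 against 0.75 g/L, differed in 2 of the 8, ADH3 and ADH5, both lower at 5 g/L, beside 35.6% of all tested probe sets. The median log2 difference of the 8 genes in that comparison was -0.33, and that of all tested probe sets was 0.13 as deposited, -0.02 after quantile normalization and -0.15 after median scaling. The called probe sets split into 1549 higher and 931 lower as deposited, and 997 higher and 1642 lower after median scaling.

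Leaving out the 0.75 g/L group altogether, slopes over 1 to 5 g/L were called for 4 of the 8 genes, beside 26.9% of all tested probe sets in the same fit. PDC6 rose by 1.73 ± 0.18 per doubling (adjusted p = 1.2e-05) and ADH5 by 0.48 ± 0.15. PDC5 fell by 0.53 ± 0.10 (adjusted p = 0.00144) and ADH3 fell by 0.23 ± 0.07 (adjusted p = 0.0337). The PDC6 slope includes 2 groups below background and depends on the floor set there. Of the minor isoforms, PDC5 and PDC6 therefore had slopes of opposite sign over that range. PDC5 did not fall throughout it, since its mean was 76.4 at 1 g/L and 100.07 at 1.5 g/L.

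Within groups, the array-to-array deviations of the abundant isoforms moved together. The correlation of the deviations of log2 signal from the group means over the 15 arrays was 0.88 between PDC1 and ADH1, 0.89 between PDC1 and ADH3, and 0.69 between ADH1 and ADH3. These correlations are a description. The same deviations of PDC1, ADH1 and ADH3 correlated at -0.43, -0.47 and -0.46 with those of the array's median signal, and at -0.05, -0.04 and -0.24 with those of the ACT1 3'/5' ratio. The 3 and 5 g/L groups also mixed fluidics runs. In the 3 g/L group, replicate 1, from run A, was the highest array for PDC1, ADH1 and ADH3 alike. The part of run, median signal or the ACT1 ratio in the shared variation was not tested.

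**Figure D3:**
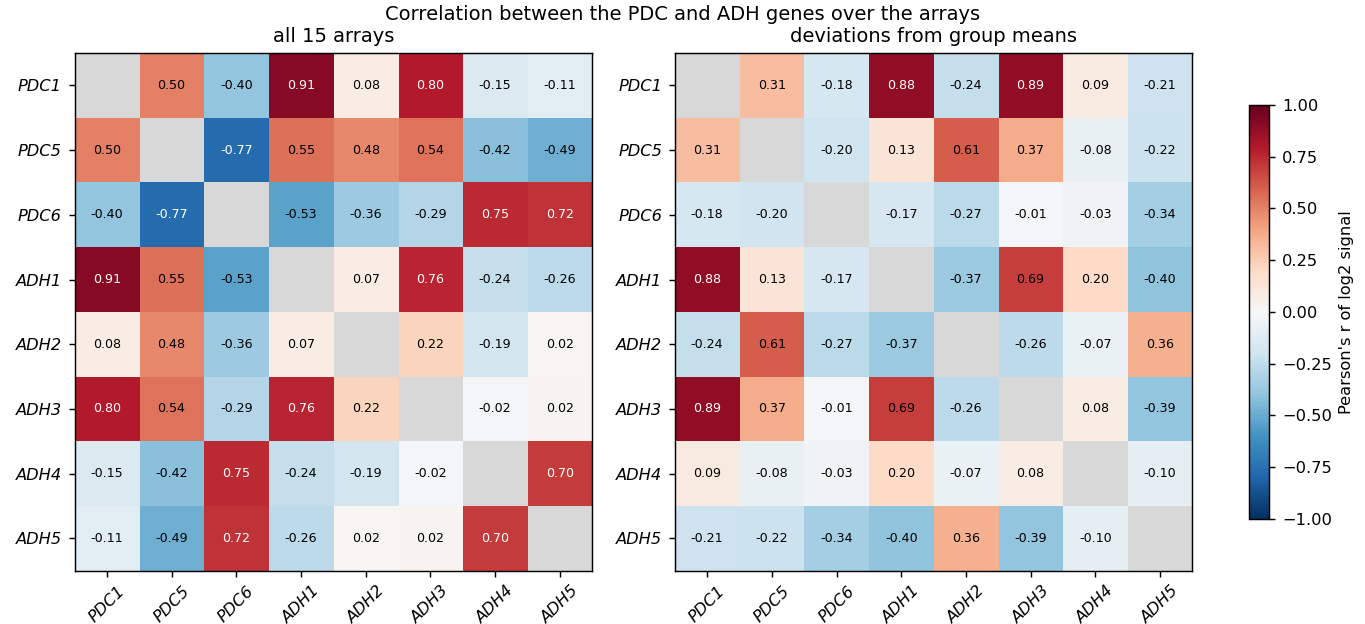
Pearson correlation of log2 signal between the PDC and ADH genes, over the 15 arrays and after subtracting each group's mean. PDC1, ADH1 and ADH3 correlate in both panels (0.91 and 0.88 for PDC1 with ADH1), while PDC5 with PDC6 is -0.77 over the arrays and -0.20 within groups.

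Over all 15 arrays, differences between groups included, PDC6 correlated at 0.72 with ADH5 and at 0.75 with ADH4, and PDC5 with PDC6 at -0.77. After the group means were subtracted these were -0.34, -0.03 and -0.20. The paralog pairs had within-group correlations of 0.31 for PDC1 with PDC5 and -0.37 for ADH1 with ADH2. The relation among the minor isoforms over the whole set thus lay between the groups.

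Among 4992 other genes, those with the profile over the 15 arrays most like PDC6 were AGX1 (r = 0.95), an alanine:glyoxylate aminotransferase, GPG1 (0.95) and the transcription factor CIN5 (0.94). Those nearest to ADH5 were YBL029C-A (0.95), PMA2 (0.95), a plasma membrane proton pump isoform, and RAV2 (0.94), a factor of vacuolar ATPase assembly. PDC5 was nearest to FKS1 (0.94), a subunit of the cell wall glucan synthase, VTC1 (0.91) and the methionine sulfoxide reductase MXR1 (0.91). FKS1 averaged 780.3, 1012, 1080, 787.9 and 721.7 from 0.75 to 5 g/L, with its highest mean at 1.5 g/L as for PDC5.

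PDC1 was nearest to the ribosomal protein gene RPL10 (0.89), the thioredoxin TRX1 (0.88) and MET17 (0.87). ADH1 was nearest to YDR034C-A (0.90), the wall mannoprotein CWP2 (0.90) and the cyclophilin CPR1 (0.90), and ADH3 to TRX1 (0.90), MEO1 (0.88) and the wall protein PIR1 (0.88). After quantile normalization 6 of the 24 relations fell by 0.1 or more, all of them for PDC1, ADH1 or ADH3. Those of ADH1 fell to 0.38 with YDR034C-A, 0.52 with CWP2 and 0.47 with CPR1. PDC1 fell to 0.70 with RPL10 and 0.54 with MET17, and ADH3 to 0.79 with TRX1. Median scaling moved 0 of the 24 by that much. ADH4 was nearest to MMS2 (0.87), GPG1 (0.83) and SHH3 (0.81), and ADH2, at its low signal, to TLC1 (0.81), SRC1 (0.76) and CDD1 (0.76).

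Other dehydrogenases of alcohols moved mostly down at the lowest step. Of 5 tested, 3 fell and 0 rose at 1 relative to 0.75 g/L (37.4% of all probe sets were called there), and over the trend 1 rose and 2 fell (23.6% of all). The 2 falling slopes, of BDH1 and BDH2, were not called without the 0.75 g/L arrays, at -0.23 (adjusted p = 0.0954) and -0.10 (adjusted p = 0.451). BDH1, the butanediol dehydrogenase, averaged 315 ± 111 at 1 g/L and 739 ± 122 at 0.75 g/L (SD, n = 3 each, log2 -1.28 ± 0.25, adjusted p = 0.00115). SFA1, which also acts on formaldehyde, averaged 77.1, 103, 130, 146 and 209 from 0.75 to 5 g/L, a slope of 0.45 ± 0.08 per doubling (adjusted p = 0.000797). With run as a fixed term in the fit the SFA1 slope was 0.28 (adjusted p = 0.0962). Of the relatives of pyruvate decarboxylase, 1 was tested: THI3 averaged 74.7 ± 16.2 at 5 g/L and 67.8 ± 17.7 at 0.75 g/L (SD, n = 3 each), with a slope of 0.01 ± 0.10 (adjusted p = 0.947).

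The genes that use acetaldehyde and acetate showed calls at the lowest step and none over the trend. At 1 relative to 0.75 g/L, 5 of 8 fell and 1 rose, where 37.4% of all probe sets were called, and the median log2 difference of the 8 was -1.21, beside 0.11 for all tested probe sets. ALD4, the mitochondrial aldehyde dehydrogenase, fell to 476 ± 59.5 at 1 g/L against 1029 ± 35.4 at 0.75 g/L (SD, n = 3 each, log2 -1.12 ± 0.20, adjusted p = 0.000529). ALD5 rose (log2 0.61 ± 0.17, adjusted p = 0.0114), and ALD6, the main cytosolic form, was at 0.48 ± 0.27 (adjusted p = 0.181). The trend test with limma called 0 of the 8, with 1 at an unadjusted p under 0.05.

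Glycerol formation and respiration of NADH are other ways to restore NAD. Of 8 genes tested, 5 fell and 0 rose at 1 relative to 0.75 g/L, with 37.4% of all probe sets called. GPD1, the glycerol 3-phosphate dehydrogenase, averaged 960 ± 110.2 at 1 g/L and 1927 ± 261 at 0.75 g/L (SD, n = 3 each, log2 -1.0 ± 0.15, adjusted p = 0.000168). GPP1, the next enzyme, was at 0.13 ± 0.17 (adjusted p = 0.588). NDE1, the external NADH dehydrogenase of mitochondria, had the 1 slope called, 0.27 ± 0.06 per doubling (adjusted p = 0.00498).

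On the supply side, 13 genes that make or use pyruvate in other ways were tested, of which 1 rose and 3 fell at 1 relative to 0.75 g/L, near the 37.4% called among all probe sets. Over the trend 2 rose and 1 fell, near the 23.6% of all, so neither count sets the list apart. PYC1, pyruvate carboxylase, rose by 0.37 ± 0.07 per doubling (adjusted p = 0.000911), and LAT1, a subunit of the pyruvate dehydrogenase complex, fell by 0.31 ± 0.07 (adjusted p = 0.00400). With run as a fixed term in the fit the LAT1 slope was -0.21 (adjusted p = 0.162). MAE1, the malic enzyme that makes pyruvate in mitochondria, rose at the lowest step, with 736 ± 190.3 at 1 g/L and 265 ± 57.3 at 0.75 g/L (SD, n = 3 each, log2 1.46 ± 0.26, adjusted p = 0.00063). Its slope, 0.40 ± 0.14 (adjusted p = 0.0432), was not called when any of the 0.75 g/L arrays, 1 g/L replicate 3, 3 g/L replicates 2 or 3, or 5 g/L replicate 2 was left out. Without the whole 0.75 g/L group that slope was 0.05 (adjusted p = 0.734), without the arrays of uncompleted records 0.03 (0.857), and with the run block 0.22 (0.311).

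Targets of Adr1 and Cat8, the activators known for ADH2 and other genes of ethanol use, rose with mannose in part. Of 12 tested other than ADH2, 6 had a rising and 1 a falling slope (23.6% of all probe sets were called), while at 1 relative to 0.75 g/L 5 fell and 0 rose (37.4% of all). Of these, PXA1, the falling slope, was above background on 0 of 15 arrays, SIP4, a rising one, on 2, and JEN1, a fall at the lowest step, on 1. MLS1, PCK1 and CRC1, each in both counts, were above it on 8, 12 and 14. ICL1, isocitrate lyase, averaged 27.5, 33.6, 34.9, 105 and 293 from 0.75 to 5 g/L (slope 1.25 ± 0.11, adjusted p = 1.6e-06). YAT2, a carnitine acetyltransferase, averaged 67.4, 25.6, 43.6, 164 and 235 (slope 0.98 ± 0.17, adjusted p = 0.000754). ADH2 itself had a slope of -0.16 ± 0.10 (adjusted p = 0.254).

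Targets of Zap1, the zinc-responsive activator known for ADH4, rose at the lowest step in 5 of 10 and fell in 0, beside 37.4% of all probe sets called in either direction. ADH4, not counted among the 10, fell at that step. IZH1, a membrane protein of zinc homeostasis, averaged 133 ± 18.7 at 1 g/L and 58.3 ± 5.46 at 0.75 g/L (SD, n = 3 each, log2 1.19 ± 0.16, adjusted p = 4.59e-05). DPP1 and ZRT2 had falling slopes, -0.23 ± 0.06 (adjusted p = 0.00835) and -0.33 ± 0.09 (adjusted p = 0.0130). Over the trend 2 of the 10 rose and 2 fell, beside 23.6% of all.

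Genes of thiamine synthesis and uptake, which supply the decarboxylase cofactor, rose over the trend in 6 of 11 and fell in 0. Among all probe sets 23.6% were called in either direction. Of these 6, THI73, THI21 and PHO3 were above background on 8, 10 and 11 of 15 arrays, and THI4, THI7 and THI72 on all 15. THI4, of the thiazole branch, averaged 25.7, 23.9, 21.8, 47.7 and 92.5 from 0.75 to 5 g/L (slope 0.71 ± 0.11, adjusted p = 0.000206). Of 14 regulators tested, the slope of 1 was called, ADR1, which was above background on only 2 of 15 arrays, so that no fold is given for it. PDC2, the activator of PDC1 and PDC5, averaged 59.5 ± 10.3 at 1 g/L and 35.6 ± 9.76 at 0.75 g/L (SD, n = 3 each, log2 0.77 ± 0.21, adjusted p = 0.0111). Its slope of 0.23 ± 0.09 did not pass (adjusted p = 0.0735), though it did without 1 g/L replicate 1 (0.0312) or 5 g/L replicate 2 (0.0468).

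**Figure D4:**
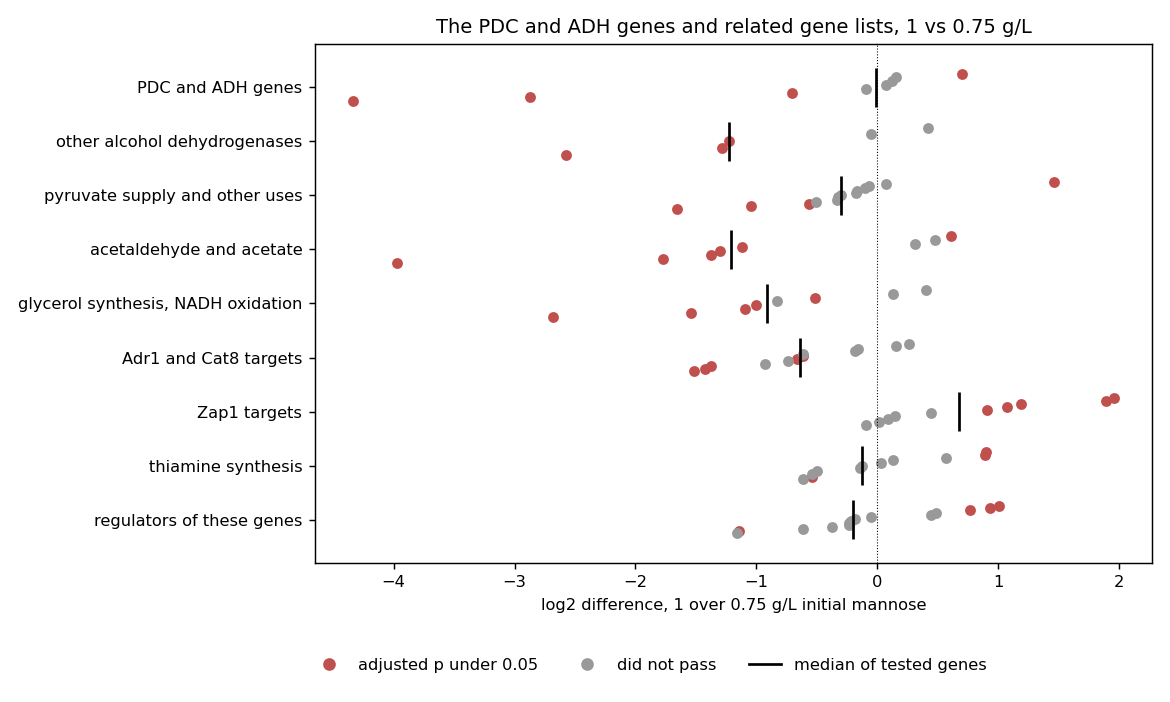
Log2 difference between 1 and 0.75 g/L of each tested gene, by gene list, in red where the adjusted p was under 0.05 and grey where not, with a bar for the median of the tested genes. The acetaldehyde and acetate genes have a median of -1.21 and the Zap1 targets of 0.67, beside 0.11 over all tested probe sets. The row named thiamine synthesis also holds genes of thiamine uptake.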

How the data were processed

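Values are those of the deposited table, in which the authors gave 1 linear signal intensity for each probe set of 15 single-colour Affymetrix YG_S98 arrays. The sources used here do not say how the signal intensity was derived from single probes. The 2% trimmed means of the arrays were 100.09 to 100.13, so no further scaling was applied. Values below the 10th percentile (1.5), 13754 in all, with 211 of them 0, were set to it, and log2 was taken. Of 9335 probe sets, 60 controls and those averaging under the 25th percentile (6.45) were removed, and 6957 were tested. limma 3.58.1 (lmFit and eBayes, R 4.3.3) was fitted to all 15 arrays, with a slope on log2 mannose, an F-test over the 5 groups and 6 differences of 2 groups, each adjusted by Benjamini-Hochberg over the tested probe sets with a threshold of 0.05.

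The genes and the 9 lists were chosen with earlier results of these data known. The 8 genes were always named. From each list up to 3 tested genes with the smallest adjusted p of the trend could be named, and for each of the 8 the 3 genes with the highest Pearson r over the arrays. Genes came from probe sets with 1 symbol (6504, with 328 holding several and 2443 none), so THI5, THI11, THI12, THI13, SNZ2 and SNZ3 were not analysed here. The lists of regulators and of targets share some genes. Background, 13.5, was taken as the 95th percentile over 13 controls of mouse or antisense sequence. It and the values within runs were added after the data were seen. Array records were read only for station, hybridisation time, message and sample code. The code was tested on simulated data. The number of arrays, 3 in each group, limits the precision. Probe sequences and growth data were not used here. Alternatives covered normalization, floor, filter, pseudocount, variance model, blocks, scale of mannose and arrays left out.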

Additional observations from a re-analysis of the deposited data

How the results depend on the processing

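The number of the 8 genes called over the trend was 1 as reported, 4 after median scaling, 4 without the arrays of uncompleted records, 4 without the 0.75 g/L arrays and 0 with the fluidics run as a block. For 5 against 0.75 g/L it was 2 as reported, 4 after median scaling and 1 with the run block. For 3 against 1.5 g/L it was 1 as reported, 2 with the floor at the 20th percentile, with log2(signal + 10), with an intensity trend and robust priors or with only the 6 arrays compared, and 0 with the run block. For 5 against 3 g/L it was 0 as reported and 1 with the higher floor, with log2(signal + 10) or with only the 6 arrays. For any difference it was 5 as reported, 2 without the arrays of uncompleted records, where ADH3, ADH4 and ADH5 were lost (adjusted p = 0.112, 0.131 and 0.0583), and 3 without the 0.75 g/L arrays, where ADH3 and ADH4 were lost (0.116 and 0.143). The 4 slopes called without the arrays of uncompleted records were those of PDC5, PDC6, ADH1 and ADH5. With 1 array left out, the counts were 1 to 3 for the trend, 4 to 6 for any difference, 1 to 2 for 5 against 0.75 g/L, 4 to 4 for 1 against 0.75 g/L, 0 to 1 for 1.5 against 1 g/L, 1 to 2 for 3 against 1.5 g/L, 0 to 1 for 5 against 3 g/L and 3 to 5 for 5 against 1 g/L.

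Slopes that reversed were ADH4 at -0.0058 (quantile normalization) and -0.045 (median scaling), and THI3 at -0.039 (quantile normalization), -0.064 (median scaling) and -0.19 (run block). PDC1 was at 0.019 with the run block. Without the arrays of uncompleted records and without the 0.75 g/L arrays, ADH5 was at 0.55 and 0.48, ALD4 at 0.13 and 0.10, and GPD1 at 0.064 and 0.026. For 5 against 0.75 g/L, differences that reversed with the run block were PDC1 at 0.42, PDC6 at 0.055, ADH1 at 0.32 and ADH4 at 0.091. With 1 array left out, slopes ranged from -0.0073 to 0.064 for ADH4 and from -0.036 to 0.062 for THI3. The slope call of THI72 was lost with the run block (0.33, adjusted p = 0.116), and those of MAE1 and ADR1 under median scaling, without a filter and with the replicate block, that of MAE1 also on linear mannose and that of ADR1 under quantile normalization and the run block. The cause was not tested.

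Replicate numbers do not pair the arrays, since 2 of 30 same-number pairs correlated above 0.1 (range -0.24 to 0.23). With the number as a replicate block, 1 of the 8 genes was called over the trend, ADH3 at -0.22 (adjusted p = 0.0275), and the any-difference call of ADH3 was lost (adjusted p = 0.0529). ADH2 and PDC6 lie near background, so their order there is limited by the signal.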

Other observations

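ADH2 was highest in replicate 2 in all 5 mannose groups, with 37.8, 35.4, 32.4, 28.6 and 32.2 from 0.75 to 5 g/L. The same replicate number held the highest array in every group for 58 of the tested probe sets, 0.834% of them. The pattern was noticed after the values were seen, and no batch in the labels goes with the number.

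Genes of the lists that were chosen after their values were seen include ALD3, an aldehyde dehydrogenase, which averaged 1306 ± 249 at 0.75 g/L, 83.6 ± 20.3 at 1 g/L and 410.2 ± 64.0 at 5 g/L (SD, n = 3 each). NDE2, the second external NADH dehydrogenase, averaged 75.4, 12.5, 23.4, 50.7 and 60.6 from 0.75 to 5 g/L, low at 1 and 1.5 g/L as PDC6 was. ZRT1, the high-affinity zinc transporter and a Zap1 target, averaged 104 ± 11.5 at 1 g/L and 26.7 ± 2.66 at 0.75 g/L (SD, n = 3 each).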
